A study of Saccharomyces cerevisiae with 15 samples.

Results

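The comparison described here was that of yeast cells given 50 µM lanthanum, the dose labelled La EC10, with untreated cells. Its members were the 3 libraries of the La EC10 group (numbered 13, 14 and 15) against the 3 of the control group (1, 2 and 3), and every gene that averaged 10 normalized counts or more over these 6 libraries (reads scaled by 1 factor per library), which left 5546 of 6600 identifiers. EC10 is, per the labels, the dose with 10% effect. The other groups set beside it were La EC50 (160 µM lanthanum, the dose with 50% effect) and Yb EC10 (6 µM ytterbium), also with 3 libraries each, and the remaining group of the series, Yb EC50, was used only to estimate the spread. All cells were the wild-type strain BY4741, a haploid laboratory strain of mating type a that carries deletions of HIS3, LEU2, MET17 and URA3. The medium was yeast nitrogen base to which β-glycerophosphate, an ester of phosphate, had been given, and exposure of growing cultures lasted 1 h. Total RNA was made into strand-specific libraries. The series' design text speaks of the retina, whereas the labels give yeast cells, and the labels were followed. Nothing in the labels ties the 3 libraries of a group to separate cultures, and the p-values rest on their spread alone, which may be technical.

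Lanthanum is a light rare earth element whose trivalent ion binds phosphate groups and can occupy calcium sites. In budding yeast, damage to the cell wall is sensed by membrane proteins of the Wsc and Mid families, which through the GTPase Rho1 and protein kinase C switch on a kinase cascade ending in Slt2, and Slt2 activates the transcription factor Rlm1. When phosphate is scarce, the transcription factor Pho4 induces phosphatases that free phosphate from esters and transporters that carry it into the cell. Haploid cells of mating type a make a-factor and the receptor for α-factor, and a second kinase cascade, ending in the transcription factor Ste12, sets the level of many mating genes.

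At 50 µM lanthanum, many genes of cell wall building and some of inositol and phospholipid synthesis were higher, and many genes of phosphate acquisition, mating, one-carbon metabolism and amino acid and purine synthesis were lower. A gene was called when the adjusted p of limma, with Benjamini-Hochberg adjustment over all genes tested, was under 0.05. Of 5546 genes, 1127 were called (20.3%), 565 of them higher (10.2%) and 562 lower (10.1%) at La EC10 than in control. Counts of gene lists below are to be set beside these shares, and the lists were chosen with earlier results of these data known. The changes were mostly small: 46 called genes were at least 2-fold higher (0.829% of those tested) and 22 at least 2-fold lower (0.397%). The median log2 difference over all genes was 0.01, on the scale of log2(normalized count + 1) used for every log2 value here, and the median standard error (SE) of a difference was 0.09. The ranges of the 3 La EC10 and the 3 control libraries did not overlap for 1913 genes (34.5%). Genes named below for the size of their change had to have ranges apart, so their lack of overlap is no further evidence. Scaling the libraries to equal read totals in place of the deposited size factors moved the median of all genes to 0.08 on the log2 scale and the calls to 763 higher and 314 lower, so that 70.8% of calls were higher, against 50.1% as deposited.

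Recovered read totals were 6373405, 7079746 and 6088849 in La EC10 libraries 13, 14 and 15, and 6478993, 6397720 and 5629666 in control libraries 1, 2 and 3. A single read was worth 0.925 to 1.06 normalized counts in La EC10 and 1.04 to 1.22 in control. Just inside the filter a gene averaged 10.1 normalized counts and just outside 9.93. Of the genes left out, 210 had no read in the 6 libraries and 844 were read below the filter. Library 14 stood apart from the other La EC10 libraries: the chi-square of reads per degree of freedom was 17.8 between libraries 13 and 14 and 17.3 between 14 and 15, against 2.92 between 13 and 15 and 7.24 to 10.7 among the controls. On the first principal component of the 6 libraries (58.1% of variance) it lay at 5.03, beside 14.02 and 14.7 for La EC10 libraries 13 and 15 and -7.33, -13.7 and -12.8 for control libraries 1 to 3. Without library 14 the calls came to 741 higher and 767 lower, without control library 2 to 390 and 246, without control library 3 to 418 and 286, without La EC10 library 13 to 368 and 245, and without La EC10 library 15 to 346 and 228. Each La EC10 library, 14 included, lay beyond the whole control range for all 46 and all 22 genes of at least 2-fold, which were chosen from these same libraries. Over all calls, library 14 did so for 547 of the 565 higher and 526 of the 562 lower genes. Libraries 13 and 15 did so for 564 and 563 of the higher and 560 and 562 of the lower genes. Of the 565 genes called higher, 292 stayed called in each of 14 alternative settings (6 of them leaving out 1 library), and of the 562 called lower, 174.

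**Figure D1:**
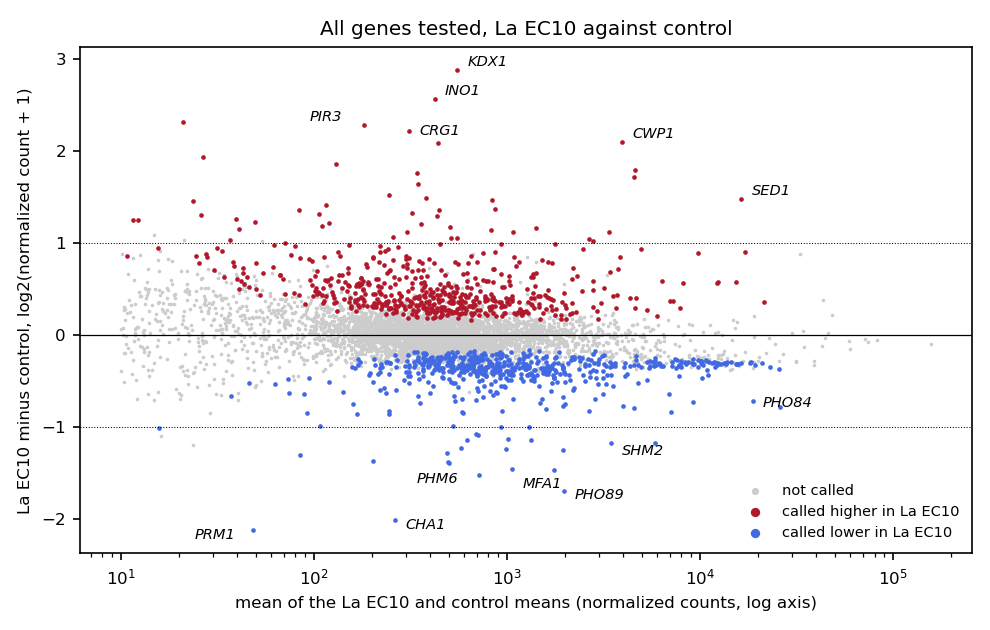
Log2 difference of La EC10 from control (y axis) against the mean level in normalized counts of the 6 libraries (x axis, log scale) for the 5546 genes tested; genes called higher or lower are coloured and some are named. The largest rise is KDX1 at 2.88 and the largest fall PRM1 at -2.12 on the log2 scale.

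Markers that define the strain went with its label. URA3, LEU2 and MET17 had no read in any of the 6 libraries, where 0 reads allow at most 3, or 2.77 to 3.19 normalized counts in La EC10 and 3.11 to 3.67 in control. HIS3, of which the strain keeps part, averaged 382 ± 21.0 normalized counts at La EC10 and 488 ± 18.4 in control (SD, n = 3 each; log2 difference -0.35 ± 0.09, limma adjusted p = 0.0164). The 7 markers of a-type cells summed to 10076, 10088 and 10053 normalized counts in the La EC10 libraries, against 19106, 19217 and 16908 in control, and all 7 were called lower. The 4 markers of α-type cells summed to 310 to 340 normalized counts at La EC10 and 288 to 316 in control, with none called. The 11 meiotic markers summed to 685 to 766 at La EC10 and 523 to 540 in control, and IME2, SPO11 and HOP1 were called higher. Of these, IME2 averaged 168 normalized counts at La EC10 and 72.1 in control. The other meiotic markers were not called or not tested, among them IME1 (log2 difference -0.05) and NDT80 (0.14), both not called. All cells were labelled as the same haploid strain of mating type a, so these sums were read as RNA levels and not as shares of cell types. In these bulk samples the share of cells in a given state and the RNA per cell cannot be told apart. The part of such shifts in the results below was not tested.

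Part of the cell wall integrity cascade was higher. KDX1, at chromosome XI, 149386 to 150687, encodes a kinase-like paralogue of Slt2 and is a known Rlm1 target. It had 1030.3, 1096 and 787 normalized counts in La EC10 libraries 13, 14 and 15, against 136, 145 and 111 in control libraries 1, 2 and 3. The lowest La EC10 library was thus several times the highest control, and the log2 difference was 2.88 ± 0.11 (SE; limma adjusted p = 1.19e-10). SLT2, the kinase that ends the cascade (chromosome VIII, 168890 to 170344), had 1189.8, 1397 and 1101 normalized counts at La EC10 and 409, 494 and 432 in control, a log2 difference of 1.46 ± 0.09 (limma adjusted p = 1.56e-08), with no overlap. Of 30 cascade genes tested, 11 were called higher and 2 lower (43.3% called, beside 20.3% of all genes). Their median was 0.04 beside 0.01 for all genes, and leaving out 1 library gave 8 to 11 higher. At equal read totals none of the 2 lower genes was called.

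Genes were called at several levels of the cascade. Among the sensors, MTL1 rose by 0.74 ± 0.11 and MID2 by 0.42 ± 0.08, whereas SLG1, also known as WSC1, differed by 0.01 ± 0.06 and was not called. RHO1, the GTPase, rose by 0.34 ± 0.07, while PKC1, its target kinase, differed by -0.12 ± 0.06 without a call. RLM1, the transcription factor, was at 597 ± 59.9 normalized counts at La EC10 and 301 ± 33.8 in control (SD, n = 3 each; log2 difference 0.99 ± 0.09, limma adjusted p = 1.79e-06). Of the phosphatases that act on such kinases, PTP2 and MSG5 rose by 1.20 ± 0.08 and 0.40 ± 0.07, while PTP3 fell, at -0.35 ± 0.08, a call lost at equal read totals (limma adjusted p = 0.0571). The upstream kinases BCK1 (-0.14 ± 0.09), MKK1 (-0.13 ± 0.06) and MKK2 (0.14 ± 0.09) and the transcription factor SWI4 (0.02 ± 0.08) were not called. MID2 overlaps JIP3 on the opposite strand, and reads of the pair could not be told apart where counting ignored strand.

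Many genes of wall mannoproteins were higher. Of 31 mannoprotein and wall surface genes, 15 were called higher and 3 lower, with a median log2 difference of 0.27, and the lower ones were PIR1 (-0.34), TIR1 (-0.53) and EGT2 (-0.33). Of these 3, 1 was left without control library 1 or 3 or La EC10 library 13 and at equal read totals, and none stayed called in all alternatives. PIR3, a protein bound to glucan through alkali-labile bonds, had 265, 345 and 289.9 normalized counts in La EC10 libraries and 85.0, 40.4 and 64.9 in control. CWP1, a mannoprotein anchored by glycosylphosphatidylinositol (GPI), had 5931, 7490.2 and 5794 at La EC10 and 1478, 1696 and 1322 in control. In both genes every La EC10 library was above every control, as their choice required, with log2 differences of 2.28 ± 0.19 (limma adjusted p = 6.38e-07) and 2.09 ± 0.10 (limma adjusted p = 6.36e-10). SED1, an abundant GPI protein of the wall, rose by 1.48 ± 0.10 to 24086 ± 3018 normalized counts at La EC10, against 8633 ± 821 in control (SD, n = 3 each). The yapsin protease gene YPS6 rose by 1.86 ± 0.18, while its relative YPS3 rose by 0.93 ± 0.10. PST1 and PRM5, known targets of Rlm1, rose by 1.05 ± 0.10 and 1.37 ± 0.08. NCW2, DFG5, TIR2 and CCW14 rose by 1.12, 0.81, 0.70 and 0.68 on the log2 scale, and with PIR3, CWP1, SED1, YPS6, YPS3, PST1 and PRM5 they were the 11 that stayed called in all 14 alternatives.

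Of 32 genes of glucan and chitin synthesis tested, 16 were called higher and 2 lower (median 0.23), 15 or 16 higher with 1 library left out. FKS1, which encodes the catalytic subunit of β-1,3-glucan synthase, had 7533, 7371 and 8047 normalized counts at La EC10 and 4616, 5671 and 5017 in control, with no overlap and a log2 difference of 0.59 ± 0.08 (limma adjusted p = 5.34e-05). Its paralogue GSC2, also called FKS2, differed by 0.05 ± 0.09 and was not called. GFA1, whose enzyme makes the first committed step towards chitin, had 3676, 3905 and 3674 at La EC10 and 1754, 1723 and 2082 in control (log2 difference 1.02 ± 0.07, limma adjusted p = 7.21e-08). Again no control library reached the La EC10 range, though 255 bases of GFA1 overlap an uncharacterized gene on the other strand. Further along the chitin path, PCM1 rose by 0.79 ± 0.08, the chitin synthase gene CHS3 by 0.42 ± 0.05, and CHS6 and CHS7, which carry that synthase to the surface, by 0.62 ± 0.07 and 0.64 ± 0.07. CRH1, whose product links chitin to glucan, rose by 0.85 ± 0.07, the glucanosyltransferase gene GAS5 by 0.49 ± 0.08 and the exoglucanase genes EXG1 and EXG2 by 0.57 ± 0.08 and 0.59 ± 0.08. SCW11, a glucanase-like gene of daughter cells, fell, with a log2 difference of -0.50 ± 0.08 (limma adjusted p = 0.000227). GAS1 and CHS1 differed by 0.17 ± 0.08 and 0.05 ± 0.06 and were not called.

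The motif of Rlm1, CTA and TAG separated by 4 bases, was searched in the 250 bases before and 50 after each start codon in build R64, on both strands. It was found in 6 of the 46 promoters of genes at least 2-fold higher (13.04%), against 5.65% of all promoters. Among all genes called it was found in 6.57% of promoters of the higher and 6.42% of the lower ones, and in 6.67% of the cascade list and 6.45% of the mannoprotein list. AGGGG, the core of the stress response element bound by Msn2 and Msn4, was found in 32.9% of promoters of genes called higher, 14.1% of those called lower and 21.96% of all. Such matches describe letters in a window and are not binding sites.

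**Figure D2:**
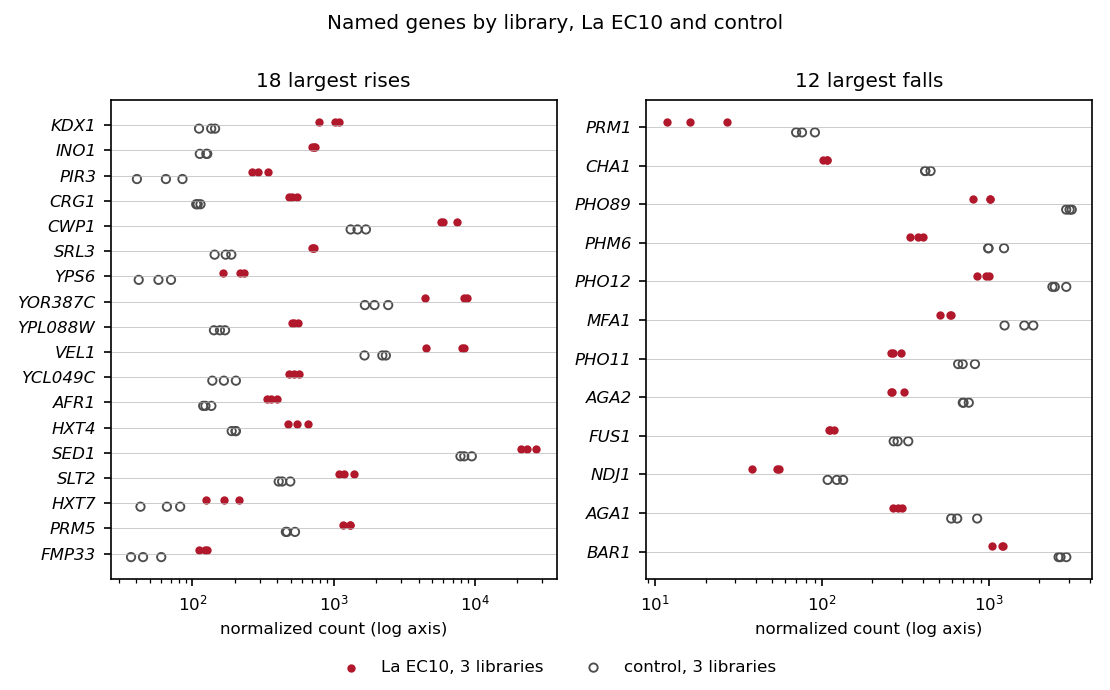
Normalized counts (log axis) of the 18 genes with the largest rises and the 12 with the largest falls, 1 point per library, La EC10 above control for each gene. Only called genes with a mean of at least 50 in the higher group entered. In every one of the 30 genes the 3 La EC10 points lie apart from the 3 control points, which the choice of these genes required.

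Genes of inositol and phospholipid synthesis were led by INO1, which encodes the enzyme that makes inositol phosphate from glucose 6-phosphate. INO1 (chromosome X, 134332 to 135933) had 700.3, 728 and 743 normalized counts at La EC10 and 126, 113 and 127 in control, with no overlap and a log2 difference of 2.56 ± 0.11 (limma adjusted p = 4.35e-10). Of 27 such genes tested, 9 were called higher and 1 lower (median 0.11), and 7 to 10 were higher with 1 library left out. OPI3 and CHO2, which methylate phosphatidylethanolamine to phosphatidylcholine, rose by 0.93 ± 0.08 and 0.43 ± 0.08, and CHO1 and PSD1, upstream of them, by 0.50 ± 0.09 and 0.40 ± 0.09. ITR1, the inositol transporter gene, rose by 0.57 ± 0.09 and INO4, of the activator pair Ino2 and Ino4, by 0.45 ± 0.10. CATGTGA, the core of the element that pair binds, was present in 40.7% of promoters of this list, 66.7% of those of its 9 genes called higher and 2.02% of all promoters. The promoter of INO1 is shown because it carries the core 2 times, at 243 and 179 bases before the start codon (build R64, chrX:135884-136183, minus strand, CATGTGA or its reverse complement in capitals).
INO1: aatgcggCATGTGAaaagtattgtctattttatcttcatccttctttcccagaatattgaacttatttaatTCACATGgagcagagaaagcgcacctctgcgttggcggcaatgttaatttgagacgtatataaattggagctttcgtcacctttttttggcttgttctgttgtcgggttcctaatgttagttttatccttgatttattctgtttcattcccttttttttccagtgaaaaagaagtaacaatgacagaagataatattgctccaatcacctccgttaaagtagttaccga

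Several other large rises were of genes with other roles. CRG1, a methyltransferase gene, had 509, 555 and 484 normalized counts at La EC10 and 114, 106 and 109 in control (log2 difference 2.22 ± 0.09, limma adjusted p = 1.91e-10). SRL3, known as a suppressor of the lethality of a checkpoint kinase deletion, had 721, 710.3 and 702 at La EC10 and 172, 144 and 189 in control (log2 difference 2.08 ± 0.09). In both the La EC10 libraries lay close together and far above the controls. AFR1, which acts on the pheromone receptor and on mating projections, was 1.52 ± 0.10 higher, opposite to most pheromone genes. The putative aryl alcohol dehydrogenase gene YPL088W rose by 1.76 ± 0.08, YCL049C by 1.64 ± 0.13 and FMP33, of a mitochondrial protein, by 1.36 ± 0.18. VEL1 and YOR387C rose by 1.72 ± 0.38 and 1.79 ± 0.37, but their coding sequences are 92.4% identical, so reads may be shared between them.

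Phosphate acquisition was lower throughout much of its list. PHO89, a sodium-coupled phosphate transporter gene (chromosome II, 796798 to 798522), had 1013, 801 and 1008 normalized counts at La EC10 and 3037, 3128 and 2898 in control. No library overlapped between the groups, and the La EC10 mean was 31.1% of the control mean (log2 difference -1.69 ± 0.09, limma adjusted p = 2.52e-09). PHO5, a secreted acid phosphatase gene, had 3586, 3205 and 3938 at La EC10 and 7439, 8644 and 8070.2 in control (log2 difference -1.17 ± 0.16, limma adjusted p = 8.04e-05). The acid phosphatase genes PHO11 and PHO12 fell to 274 ± 20.7 and 933 ± 78.5 normalized counts at La EC10, against 724 ± 88.5 and 2591 ± 271 in control (SD, n = 3 each), but they are 99.7% identical and are read as a pair. Of 34 phosphate genes, 17 were called lower and 2 higher (5 higher without La EC10 library 14; median -0.29), and 16 of the 17 stayed called in all 14 alternatives.

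By role, both high-affinity transporters of phosphate, PHO89 and PHO84, were lower, as was the low-affinity PHO90, at -0.34 ± 0.08. PHO84, which carries phosphate with protons, was at 14088, 13627 and 14705 normalized counts at La EC10 and 21902, 25746 and 22093 in control (log2 difference -0.71 ± 0.09), though 1764 bases of it overlap an antisense transcript. SPL2, which restrains low-affinity uptake, the vacuolar phosphatase gene PHO8 and PHM6, of unknown function, fell, with log2 differences of -1.07 ± 0.12, -0.83 ± 0.07 and -1.52 ± 0.19. All 4 genes of the vacuolar polyphosphate polymerase complex fell, with -0.49 for VTC1, -0.46 for VTC2, -0.64 for VTC3 and -0.52 for VTC4 on the log2 scale. So did the regulators PHO4 (-0.40) and PHO81 (-0.47), the inhibitor of the kinase that holds Pho4 inactive. The members called higher act on glycerophosphodiesters: GIT1, their transporter, was at 146 ± 23.5 normalized counts at La EC10 and 81.1 ± 16.7 in control (log2 difference 0.85 ± 0.16), and GDE1, which cleaves glycerophosphocholine, rose by 0.45 ± 0.07. CACGTG, the core bound by Pho4 and also by Cbf1, stood in 17.6% of the promoters of the list, 23.5% of those of its 17 genes called lower and 2.95% of all. That of SPL2 is shown because it holds the core 3 times, at 147, 90 and 31 bases before the start codon (build R64, chrVIII:375051-375350, minus strand, capitals mark CACGTG).
SPL2: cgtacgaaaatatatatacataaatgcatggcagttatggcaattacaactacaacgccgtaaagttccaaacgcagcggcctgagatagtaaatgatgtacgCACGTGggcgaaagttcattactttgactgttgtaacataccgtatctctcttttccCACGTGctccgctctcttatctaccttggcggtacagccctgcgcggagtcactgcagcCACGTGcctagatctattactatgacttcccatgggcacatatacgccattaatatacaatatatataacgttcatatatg

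Against La EC50, 4 of the 34 phosphate genes were called lower at La EC10 and none higher (median -0.07, beside -0.01 for all genes), where 0.992% of all genes were called lower. PHO89 had 1013, 801 and 1008 normalized counts at La EC10 and 2031, 2158 and 2105 at La EC50, with no overlap (log2 difference -1.16 ± 0.09, limma adjusted p = 4.09e-06). Ranges apart were required for its choice in this comparison. PHO5 averaged 3576 ± 367 at La EC10 and 7232 ± 220.5 at La EC50 (SD, n = 3 each; -1.02 ± 0.16, limma adjusted p = 0.00296), and PHO11 differed by -1.21 ± 0.16 (limma adjusted p = 0.00109). PHO12 differed by -0.71 ± 0.13, a call that ended without La EC50 library 12 (limma adjusted p = 0.0566). SPL2 and VTC3, by contrast, differed by -0.41 ± 0.12 and -0.05 ± 0.06 between the doses and were not called. With control at 0, La EC10 at 50 and La EC50 at 160 µM, the mean of PHO89 was 3021 ± 116, 941 ± 121 and 2098 ± 63.9 normalized counts (SD, n = 3 each), lowest at the middle dose.

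**Figure D3:**
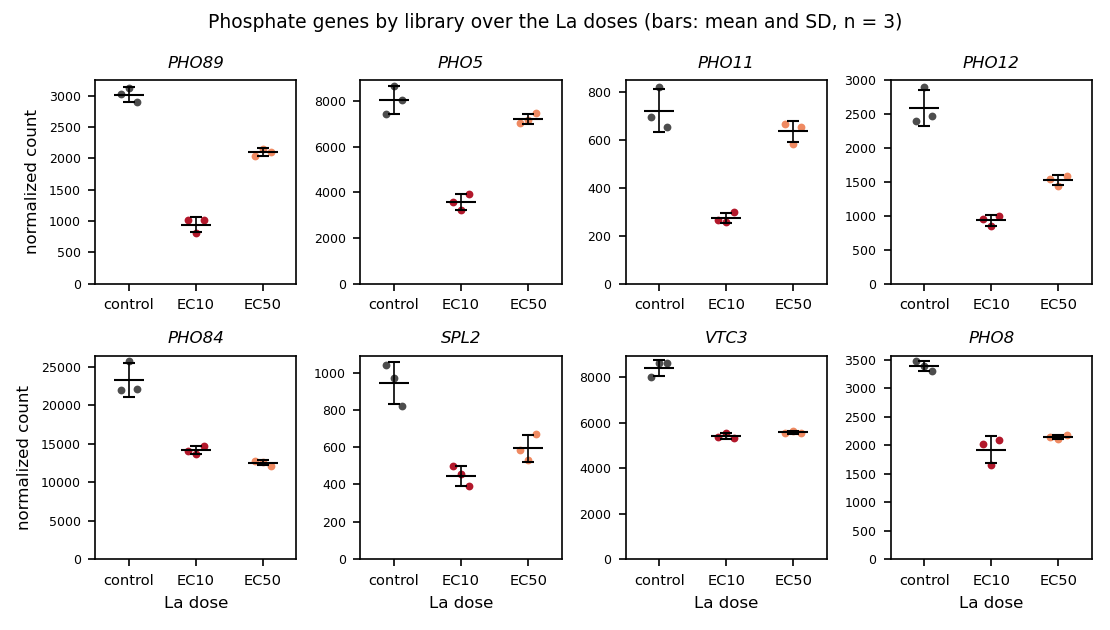
Normalized counts (linear axis) of 8 phosphate genes in control, La EC10 and La EC50 libraries, with 1 point per library and bars for mean and SD (n = 3). PHO89, PHO5, PHO11 and PHO12 are lowest at La EC10, while SPL2 is at 448 ± 53.4 at La EC10 and 595 ± 72.4 at La EC50.

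Mating genes were lower. All 7 a-type genes tested were called lower at La EC10, in all 14 alternatives, with a median log2 difference of -0.85. MFA1, an a-factor gene, had 595, 586 and 508 normalized counts at La EC10 and 1840.0, 1626 and 1238 in control, and BAR1, a secreted protease that cleaves α-factor, had 1193, 1041 and 1218 at La EC10 and 2609.6, 2903 and 2679 in control. In neither gene did a La EC10 library reach the lowest control, and the log2 differences were -1.46 ± 0.13 (limma adjusted p = 1.16e-06) and -1.25 ± 0.08 (limma adjusted p = 1.56e-08). AGA2, the binding subunit of a-agglutinin, and its anchor AGA1 fell, with log2 differences of -1.38 ± 0.08 and -1.28 ± 0.11. The receptor gene STE2 (-0.79), the a-factor exporter gene STE6 (-0.49), the a-factor gene MFA2 (-0.77) and ASG7 (-0.85) fell as well, with the log2 difference in brackets. The α-type markers STE3 and SAG1 differed by 0.27 ± 0.13 and 0.05 ± 0.08 and were not called.

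Of 30 genes of pheromone signalling and cell fusion, 17 were called lower and 2 higher (median -0.25), with 12 to 15 lower when 1 library was left out and 11 at equal read totals. PRM1, a membrane protein of cell fusion (chromosome XIV, 110917 to 112902), had 16.1, 26.8 and 11.7 normalized counts at La EC10 and 75.7, 90.5 and 69.8 in control. FUS1, of the mating projection, had 109, 117 and 112 at La EC10 and 283, 328 and 268 in control. All La EC10 libraries of both genes lay below all controls, with log2 differences of -2.12 ± 0.24 (limma adjusted p = 1.07e-05) and -1.37 ± 0.12 (limma adjusted p = 1e-06). Along the pathway, the G protein gene GPA1 (-0.56), the kinase gene FUS3 (-0.74), the transcription factor genes STE12 (-0.52) and KAR4 (-0.72), the desensitizing gene SST2 (-0.999) and FAR1 (-1.13), of cell cycle arrest, fell. TEC1, the partner of Ste12 in filamentous growth, chosen after its values were seen, had 330.1, 361 and 346 normalized counts at La EC10 and 799.7, 811 and 813 in control (log2 difference -1.22 ± 0.09). The 2 that rose were PRM10, by 0.997 ± 0.16, and MSG5, by 0.40 ± 0.07. NDJ1, a meiotic telomere gene, had 38.1, 53.6 and 55.2 normalized counts at La EC10 and 108, 122 and 134 in control, whereas IME2, a kinase of meiosis, had 171, 163 and 169.9 at La EC10 and 64.3, 80.9 and 71.0 in control, so single meiotic genes went in opposite directions.

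TGAAACA, the pheromone response element bound by Ste12, occurred in 71.4% of promoters of the a-type genes, 43.8% of the pheromone list and 7.27% of all promoters. Among the 17 pheromone genes called lower it was in 41.2%, near the share of the whole list. The promoters of PRM1 (chrXIV:110667-110966, plus strand) and FUS1 (chrIII:71553-71852, plus strand), in build R64, are shown because they hold several copies. Capitals mark TGAAACA or its reverse complement, which starts 181, 170 and 159 bases before the start codon in PRM1 and 187 and 160 before it in FUS1.
PRM1: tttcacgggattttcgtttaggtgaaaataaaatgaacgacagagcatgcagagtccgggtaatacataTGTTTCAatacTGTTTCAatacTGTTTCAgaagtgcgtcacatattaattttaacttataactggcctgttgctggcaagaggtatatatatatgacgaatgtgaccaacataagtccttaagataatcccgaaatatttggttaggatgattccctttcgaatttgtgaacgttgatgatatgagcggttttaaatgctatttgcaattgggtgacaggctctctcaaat
FUS1: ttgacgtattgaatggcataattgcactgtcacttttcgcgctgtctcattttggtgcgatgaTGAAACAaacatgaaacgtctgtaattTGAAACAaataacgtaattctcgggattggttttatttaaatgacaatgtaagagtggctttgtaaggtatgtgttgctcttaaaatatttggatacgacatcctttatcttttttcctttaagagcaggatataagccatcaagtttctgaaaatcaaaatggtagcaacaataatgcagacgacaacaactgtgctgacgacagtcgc

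Genes of glycine, serine and one-carbon metabolism were lower. CHA1, the serine and threonine deaminase gene that serine induces, had 106, 106 and 101 normalized counts at La EC10 and 415, 446 and 414 in control, with a log2 difference of -2.01 ± 0.15 (limma adjusted p = 1.17e-07). The La EC10 mean was 24.6% of the control mean and no libraries overlapped. SHM2, the cytosolic serine hydroxymethyltransferase gene, had 2174, 2159 and 2067 at La EC10 and 4496, 5013 and 4924 in control, and GCV2, of the glycine cleavage complex, 419, 363 and 382 at La EC10 and 768, 909 and 909 in control. Both were lower in each La EC10 library than in any control, with log2 differences of -1.17 ± 0.06 and -1.15 ± 0.08. The other subunit genes GCV1 (-0.84) and GCV3 (-0.63) and the folate enzyme gene MTD1 (-0.85) fell. Of 23 genes 12 were called lower and 1 higher (median -0.23), 9 to 13 lower with 1 library left out. The gene called higher, SER3, overlaps the regulatory transcript SRG1 on the same strand.

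Purine and amino acid synthesis genes were lower too. Of 23 purine genes tested 15 were called lower and none higher (median -0.34), 8 of them in all 14 alternatives and 9 without La EC10 library 13. ADE17, of the last steps to inosine monophosphate, had 609, 581 and 581 normalized counts at La EC10 and 1415, 1364 and 1399.9 in control (log2 difference -1.24 ± 0.07, limma adjusted p = 8.62e-09), with no overlap. ADE12 (-0.74) and ADE13 (-0.59), which lead on to AMP, fell. Of 39 amino acid synthesis genes tested 22 were called lower and none higher (median -0.26), 15 of them in all alternatives, among them HIS4 (-0.77), LEU1 (-0.75), LYS20 (-0.70) and ILV3 (-0.64). TGACTC, the core bound by Gcn4, was in 56.4% of promoters of this list, 56.5% of the one-carbon list and 8.12% of all. Among the 22 amino acid synthesis genes called lower the share was 59.1%, near that of the whole list. Uptake genes did not share that direction: of 24, 5 were higher and 2 lower (29.2% called, beside 20.3% of all genes, median 0.0003). GAP1, the general amino acid permease, was up 0.90 ± 0.20 and OPT2, an oligopeptide transporter gene, up 1.93 ± 0.27. OPT2 averaged under 50 normalized counts in each group and so was left out of the largest rises. The dicarboxylic amino acid permease DIP5 was at -0.996 ± 0.07.

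Hexose transporter genes moved in both directions. HXT4, a transporter gene of high affinity, had 553, 474 and 658 normalized counts at La EC10 and 189.8, 203 and 202 in control. HXT7, also of high affinity, had 168, 125 and 216 at La EC10 and 81.9, 66.0 and 42.9 in control. HXT1, of low affinity, had 818, 843 and 835 at La EC10 and 1653, 2102 and 1776 in control. The La EC10 and control libraries did not overlap in any of these 3 genes, and the log2 differences were 1.48 ± 0.15, 1.41 ± 0.30 and -1.14 ± 0.09 (limma adjusted p = 3.71e-06, 0.00443 and 1.68e-07). HXT7 and HXT6 are 99.8% identical and share reads. The sugar kinase genes HXK1 and GLK1 rose by 1.16 ± 0.22 and 0.90 ± 0.17, and MIG2, a glucose-induced repressor gene, fell, at -0.70 ± 0.11. The enolase gene ENO1 rose by 0.91 ± 0.18, while ADH1, the main fermentative alcohol dehydrogenase gene, fell, at -0.78 ± 0.18. Over the list of 39 tested genes 8 were higher and 7 lower, 38.5% called beside 20.3% of all genes (median -0.05). The list had 5 higher without La EC10 library 13 and 4 lower without control library 3.

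Citrate cycle genes also moved in both directions. The aconitase gene ACO1 (-0.70) and the isocitrate dehydrogenase genes IDH1 (-0.67) and IDH2 (-0.56) fell. The citrate synthase gene CIT1 (0.43), LSC1 (0.33) and LSC2 (0.38) of succinyl-CoA ligase, SDH1 (0.57) of succinate dehydrogenase and the malate dehydrogenase gene MDH1 (0.36) rose. Of 23 genes 6 were higher and 5 lower, 47.8% called beside 20.3% of all genes (median 0.13). Without control library 2 or La EC10 library 15, 3 were lower. Of 37 respiratory chain and ATP synthase genes tested 19 were higher and none lower (median 0.25), with 12 higher without control library 2 or 3 or La EC10 library 13 or 15, and 8 in all alternatives, SDH1 and SDH4 (0.47) the largest of these.

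Stress and folding genes were higher, and more so in La EC10 libraries 13 and 15 than in library 14. For 30 genes of the unfolded protein response and ER folding, the mean log2 level above the control mean was 0.42 in library 13, 0.12 in library 14 and 0.46 in library 15, against 0.03, 0.01 and -0.05 in control. There 14 were called higher and none lower (median 0.25), with 22 without library 14, 9 without control library 2, 8 without control library 3 or La EC10 library 13 or 15, and 8 in all alternatives. KAR2, the ER chaperone, had 15609, 11911 and 16954 normalized counts at La EC10 and 10133, 9879 and 9482 in control (log2 difference 0.58 ± 0.12), and the oxidase ERO1 rose by 0.64 ± 0.11. The general stress list had means of 0.52, 0.19 and 0.57 in libraries 13, 14 and 15, against 0.17, -0.12 and -0.05 in control. Of its 41 tested genes 15 were higher and none lower (median 0.44), with 21 without library 14 and 9 without library 13 or 15. GSY1, of glycogen synthesis, and MSN4, a stress transcription factor, rose by 1.07 ± 0.23 and 0.64 ± 0.11, but HSP12 and CTT1, usual markers of this response, differed by 0.09 ± 0.35 and 0.08 ± 0.20 and were not called.

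**Figure D4:**
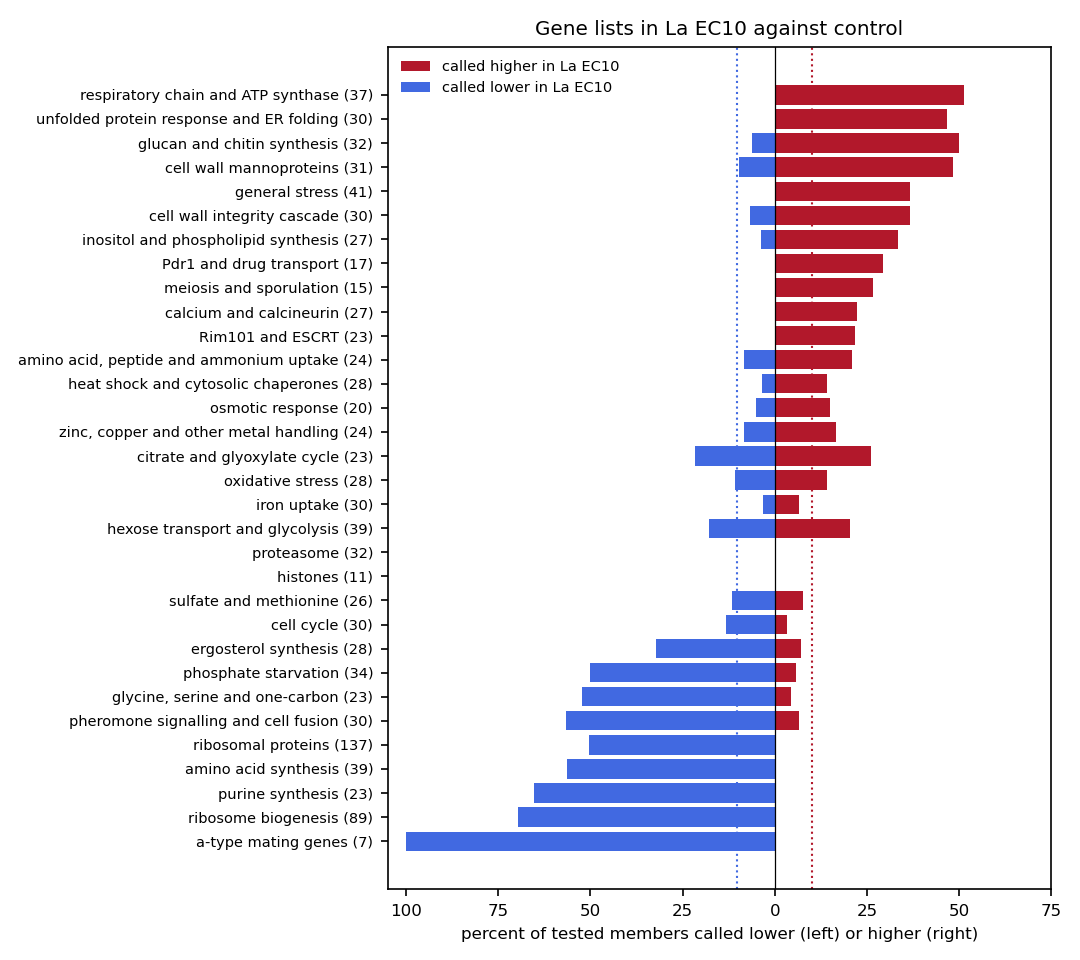
Percent of the tested members of each gene list called higher and lower at La EC10 against control. Dotted lines mark the percentages over all genes, 10.2 and 10.1. The lists were chosen with earlier results of these data known. The a-type list is lower in all 7 members, and the proteasome and histone lists hold no called gene.

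Genes that build ribosomes were lower, with many calls that depended on single libraries. Of 89 ribosome biogenesis genes 62 were called lower and none higher (median -0.36), 82 without library 14, but 65, 14 and 15 without control library 1, 2 or 3 and 13 and 11 without La EC10 library 13 or 15. The mean log2 level was -0.42, -0.18 and -0.47 in La EC10 libraries 13, 14 and 15, and -0.13, 0.05 and 0.07 in control. The 9 that stayed called in all alternatives included the RNA polymerase I subunit gene RPA190 (-0.47), UTP10 (-0.43) of the small subunit processome and LTV1 (-0.57), of small subunit export. Of 137 ribosomal protein genes 69 were lower and none higher (median -0.29). That count was 88 without La EC10 library 14, 41, 7 and 36 without control library 1, 2 or 3, and 8 and 6 without La EC10 library 13 or 15, and 5 genes stayed called throughout. At equal read totals the 2 lists had 38 and 35 genes called lower. The PAC element, GCGATGAG, lay in 52.8% of ribosome biogenesis promoters, 16.2% of those of genes called lower, 1.24% of those called higher and 4.002% of all. Of the 62 ribosome biogenesis genes called lower, 54.8% had it, near the share of the whole list. LTV1 is shown as an example (build R64, chrXI:176531-176830, plus strand, capitals mark the element, 113 bases before the start codon).
LTV1: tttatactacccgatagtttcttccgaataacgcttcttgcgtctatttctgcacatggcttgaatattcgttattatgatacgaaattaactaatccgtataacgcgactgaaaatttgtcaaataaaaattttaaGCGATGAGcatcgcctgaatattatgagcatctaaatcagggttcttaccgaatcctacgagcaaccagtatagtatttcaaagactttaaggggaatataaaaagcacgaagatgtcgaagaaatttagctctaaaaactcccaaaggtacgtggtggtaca

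Lists for calcium and metals had few calls that held. The shares called were 22.2% for calcium, 10% for iron and 25% for other metals, beside 20.3% of all genes. Of 27 calcium and calcineurin genes 6 were higher and none lower (median 0.05), 3 of them without La EC10 library 15. ECM7, a subunit of the high-affinity calcium influx system, rose by 0.58 ± 0.06, CMD1 (calmodulin) by 0.26 ± 0.05 and CMP2, a calcineurin catalytic subunit, by 0.35 ± 0.08. The calcium pump gene PMC1 rose by 0.37 ± 0.10 but lost its call in 4 alternatives, and RCN1, a calcineurin target, differed by -0.03 ± 0.13 and was not called. Of 30 iron uptake genes tested 2 were higher and 1 lower (median 0.24), 11 higher without La EC10 library 14, 0 without La EC10 library 13 or 15 and 1 without control library 1, 2 or 3. The list's library means were 0.35, -0.02 and 0.42 log2 units in La EC10 and 0.11, -0.10 and -0.01 in control. Of 24 zinc, copper and other metal genes tested 4 were higher and 2 lower (median 0.23), 9 higher without La EC10 library 14 and 0 lower without control library 3 or La EC10 library 13. SMF1, a manganese transporter gene, rose by 0.62 ± 0.07 and PCA1, a metal-exporting ATPase gene, by 0.96 ± 0.12. ZAP1 and ZRT1, the zinc regulator and its main transporter, differed by 0.45 ± 0.20 and 0.37 ± 0.20 and were not called.

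The remaining lists are set beside the 20.3% of all genes that were called. The shares called were 39.3% for ergosterol, 29.4% for Pdr1 and drug transport, 26.7% for meiosis and 25% for oxidative stress. Rim101 and ESCRT (21.7%), osmotic response (20%), sulfate and methionine (19.2%), heat shock (17.9%) and the cell cycle (16.7%) were near or below the share of all genes. Of 28 ergosterol genes 9 were lower and 2 higher (median -0.13), with 5 lower at equal read totals and 0 higher without control library 1 or 2 or La EC10 library 15. The called ones included the sterol desaturase gene ERG3 at -0.53 ± 0.07 and the methyl oxidase gene ERG25 at -0.46 ± 0.06. Of 17 genes in the list for Pdr1 and drug transport 5 were higher, led by the methyltransferase gene CRG1 and the polyamine transporter gene TPO4 (1.05 ± 0.10). Of 23 Rim101 and ESCRT genes 5 were higher (2 without La EC10 library 13), among them the pH sensor gene RIM21 (0.59 ± 0.06) and the repressor gene NRG1 (0.91 ± 0.20). Heat shock and cytosolic chaperones had 4 of 28 higher (2 without La EC10 library 15) and 1 lower, osmotic response 3 and 1 of 20, and the cell cycle 1 and 4 of 30. Oxidative stress had 4 of 28 higher, 0 of them without control library 2, and 3 lower, 1 of them without that library. Sulfate and methionine had 2 of 26 higher, 6 without La EC10 library 14 and 0 without control library 2 or 3 or La EC10 library 13 or 15, and 3 lower. The 1 lower gene of the heat shock, osmotic and inositol lists was in each case not called without control library 3. In the meiosis list 4 of 15 tested were higher, 1 of them without La EC10 library 13. No gene of the 32 of the proteasome and the 11 histone genes was called in either direction by limma, edgeR or DESeq2, and 1 histone gene and no proteasome gene had an unadjusted p under 0.05 in limma. For the lists above said to hold none in a direction, edgeR and DESeq2 called 0 there as well, and limma gave an unadjusted p under 0.05 for 4 calcium genes on the lower side, 1 purine gene on the higher side and no gene of the others.

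Between the doses of lanthanum few genes were called. La EC10 differed from La EC50 in 99 genes (1.79%), 44 higher (0.793%) and 55 lower (0.992%) at La EC10, and 810 had an unadjusted p under 0.05. Heat shock genes were higher at La EC10 in 9 of 28, with 5 without La EC50 library 11, 3 without La EC50 library 12 and 4 without La EC10 library 13 or 15. SSA4, an inducible chaperone of the Hsp70 family, was at 632 ± 65.4 normalized counts at La EC10 and 365 ± 18.4 at La EC50 (SD, n = 3 each; log2 difference 0.79 ± 0.13, limma adjusted p = 0.00581), and SSA1 and HSP82 differed by 0.66 ± 0.09 and 0.57 ± 0.08; these 3 stayed called in all alternatives. HSP26, a small heat shock protein gene, had 778, 369 and 780.5 at La EC10 and 171, 184 and 150.4 at La EC50 (1.85 ± 0.35, limma adjusted p = 0.0117). Library 14 was lowest of the La EC10 group, and HSP26 had no overlap, which its choice required. Its call ended without La EC50 library 12 (limma adjusted p = 0.0688) and without La EC10 library 13 or 15 (0.0718 and 0.0696). TDH1, a glycolytic dehydrogenase gene, and AQR1, a transporter gene, were higher at La EC10 by 1.65 ± 0.33 and 1.004 ± 0.20, but TDH1 lost its call without La EC50 library 10 or 12 or La EC10 library 13 or 15 (limma adjusted p = 0.0663, 0.0895, 0.0867 and 0.0787), and AQR1 without La EC50 library 10 or 12 or La EC10 library 15 (limma adjusted p = 0.0802, 0.0974 and 0.0696). Lower at La EC10 were MPC3, a mitochondrial pyruvate carrier gene, at -1.50 ± 0.26 (limma adjusted p = 0.00729, and 0.0544 without La EC50 library 12), TMA10 at -1.14 ± 0.27, lost when any library but La EC50 library 11 was left out (limma adjusted p = 0.0754 to 0.174), and MTH1, of glucose signalling, at -1.06 ± 0.14 (limma adjusted p = 0.00103). HXT1 and its relative HXT2 were also lower at La EC10, at -0.48 ± 0.09 and -0.77 ± 0.12, and both stayed called in all alternatives.

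Against ytterbium at the same effect level, though not the same concentration, 322 genes were called (5.81%), 95 higher (1.71%) and 227 lower (4.09%) at La EC10. INO1, higher than control at La EC10, had 700.3, 728 and 743 normalized counts at La EC10 and 4197, 2874 and 3206 at Yb EC10, so its level was lower with lanthanum than with ytterbium in every library (log2 difference -2.22 ± 0.11, limma adjusted p = 1.46e-08). General stress genes were lower at La EC10 in 16 of 41, and MSN4 was higher, a call lost without Yb EC10 library 8 or La EC10 library 14 or 15 (limma adjusted p up to 0.0771). HSP12, a membrane-protecting stress protein gene, had 421, 184 and 391 at La EC10 and 3029, 1222 and 2637 at Yb EC10, and SPG4, a stationary phase gene, 23.1, 8.32 and 9.56 at La EC10 and 171, 145 and 240.0 at Yb EC10. There was no overlap in either, which the choice of these genes required. The log2 differences were -2.77 ± 0.35 (limma adjusted p = 0.000127) and -3.77 ± 0.46 (limma adjusted p = 7.28e-05). The count of stress genes was 28 without Yb EC10 library 8 and 7 in a fit to the 6 libraries alone. TMA10 (-3.63), HXT5 (-3.28), CPP3 (-3.22), BAG7 (-2.95), NQM1 (-2.75) and BDH2 (-2.70) were also lower at La EC10 and, like HSP12 and SPG4, stayed called in all alternatives.

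Calcium genes and phosphate, mating and one-carbon genes were among those lower than with ytterbium. Of 27 calcium and calcineurin genes 8 were lower at La EC10 than at Yb EC10, all in every alternative, and ECM7 was higher, a call lost without La EC10 library 15 and in a fit to the 6 libraries alone (limma adjusted p up to 0.0921). The sodium pump gene ENA1 averaged 155 ± 22.3 normalized counts at La EC10 and 464 ± 110.2 at Yb EC10 (SD, n = 3 each; log2 difference -1.56 ± 0.14, limma adjusted p = 3.58e-06). GSC2 (-1.22), the kinase gene CMK2 (-1.20), RCN2 (-1.04) and RCN1 (-0.67) were lower too, and none of these 4 was called against control. Of the 7 a-type genes 5 were lower than at Yb EC10, of 30 pheromone genes 8 (5 in a fit to the 6 libraries alone), of 34 phosphate genes 8 (4 in that fit) and of 23 one-carbon genes 5. CHA1 had 106, 106 and 101 at La EC10 and 239, 229.7 and 216 at Yb EC10, with no overlap (log2 difference -1.12 ± 0.15, limma adjusted p = 0.000181). Higher than at Yb EC10 were KDX1, by 0.67 ± 0.11 (limma adjusted p = 0.00105), and CWP1, by 0.59 ± 0.10 (limma adjusted p = 0.0013), while SLT2 differed by 0.20 ± 0.09 and was not called. The largest differences in that direction, YOR387C at 1.52 ± 0.37, VEL1 at 1.43 ± 0.38, the alcohol dehydrogenase gene ADH4 at 1.03 ± 0.27 and the reductase gene FRE4 at 1.02 ± 0.28, lost their calls without Yb EC10 library 8 (limma adjusted p = 0.061, 0.102, 0.0715 and 0.106) and without La EC10 library 13 (0.0879, 0.129, 0.106 and 0.116) or 15 (0.0919, 0.124, 0.113 and 0.104). ADH4 and FRE4 also lost theirs without La EC10 library 14 (limma adjusted p = 0.0507 and 0.0764), and FRE4 without Yb EC10 library 9 (limma adjusted p = 0.0639).

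The genes at least 2-fold changed against control can be set beside both other groups, with the limit that the same La EC10 libraries enter every comparison and chose these genes. Of the 22 that were lower, 19 were also called lower than at Yb EC10, the others being PHM6, PRM2 and SPL2. Against La EC50, 6 of the 22 were lower (PHO89, PHO11, PHO5, PHO12, HXT1 and TEC1) and 2 higher, SHM2 by 0.49 ± 0.06 and ADE17 by 0.54 ± 0.07. Of the 46 that were higher, 12 were called higher and 6 lower than at Yb EC10, the 12 being 7 without La EC10 library 13. Of the same 46, 1 was higher and 4 lower than at La EC50 (1 lower without La EC50 library 10, and 2 without La EC50 library 12 or La EC10 library 13 or 15), with SRL3 at -0.44 ± 0.09 and PRM5 at -0.47 ± 0.08 among the lower.

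**Figure D5:**
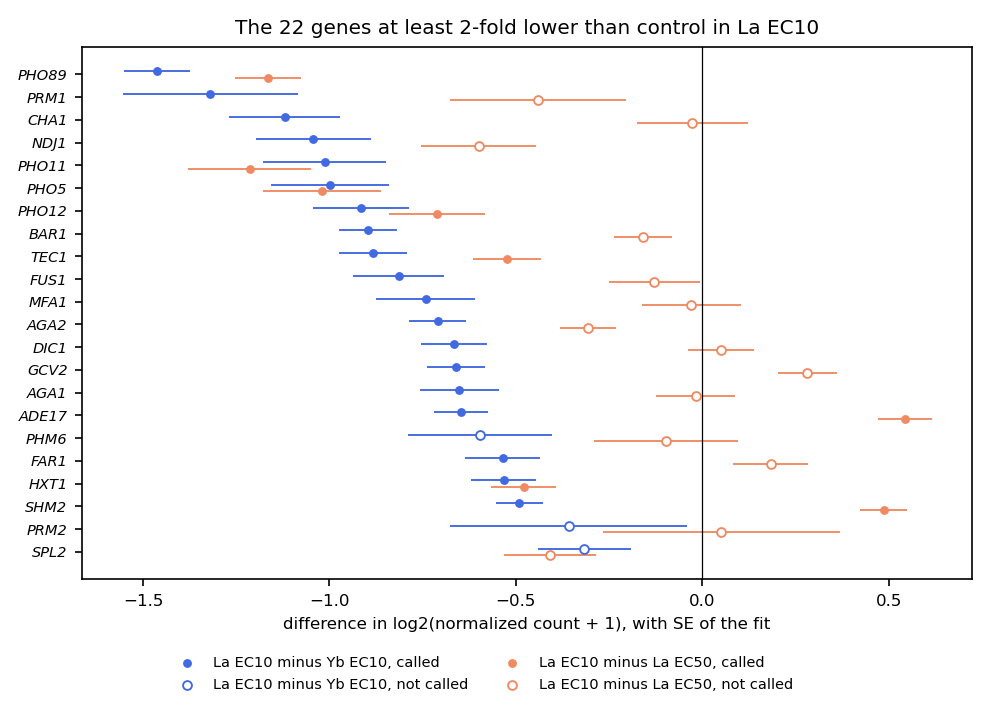
Log2 difference of La EC10 from Yb EC10 and from La EC50, with SE bars, for the 22 genes at least 2-fold lower than control at La EC10; filled points were called. PHO89 lies at -1.46 against Yb EC10 and -1.16 against La EC50, while SHM2 and ADE17 lie below 0 against Yb EC10 and above 0 against La EC50.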

How the data were processed

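The deposited table holds 1 signal value per gene and library, gene counts that the authors divided by a size factor per library, called normalized counts here. Per the labels' protocols, strand-specific TruSeq libraries were made. The submitters' processing notes list build R64 and, as tools, TopHat2 2.1.1, HTSeq 0.6.1p1, FastQC 0.67 and DESeq2 1.14.1. What each did, and whether counting used strand, is not given in the sources used here. Columns carry a group and a running number, by which libraries are named. Whole reads were recovered from the steps of the values (100% whole within a tolerance of 0.01). The limits given for 0 reads cover counting error only, whereas the SDs and SEs rest on the spread between libraries.

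Genes with a mean of at least 10 over the 6 La EC10 and control libraries were tested on log2(normalized count + 1), which understates changes of low genes. One limma 3.58.1 fit (R 4.3.3) with empirical Bayes and a mean-variance trend held all 15 libraries and 1 coefficient per group, with 2-sided contrasts and Benjamini-Hochberg adjustment over all genes tested. An exact permutation test of 3 against 3 libraries cannot go below p = 0.1. Count tests on the recovered reads called 516 higher and 630 lower (edgeR 4.0.16) and 523 and 549 (DESeq2 1.42.0). Of 6600 identifiers 5917 matched the RefSeq annotation of R64, the source of coordinates (1-based) and promoters. Named genes were those called at 2-fold or more, with a mean of at least 50 in the higher group and ranges apart: the 18 largest rises and 12 largest falls against control, the 8 largest per direction in the other comparisons, then called members of gene lists and all markers. Members and lists were chosen with earlier results of these data known. Other settings are given in the closing section.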

Additional observations from a re-analysis of the deposited data

How the results depend on the processing

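Against control, leaving out 1 library gave 346 to 741 genes higher and 228 to 767 lower at La EC10, and equal read totals gave 314 lower. For La EC10 against La EC50 the omissions gave 11 to 51 higher and 21 to 49 lower, equal read totals 27 higher, and DESeq2 on recovered reads 80 higher and 91 lower, with 108 adjusted p-values not given by that tool. For La EC10 against Yb EC10 the omissions gave 36 to 87 higher and 163 to 288 lower, and a fit to the 6 libraries of these groups alone 18 higher and 119 lower. The cause of these shifts was not tested. None of the genes called in the 3 comparisons (1127, 99 and 322) turned its direction in the 14 settings of its comparison. Medians near 0 did: that of the hexose list was 0.02 at equal read totals and that of all genes -0.01 under quantile normalization. Against La EC50 the balance of calls turned to 51 higher and 45 lower under quantile normalization and 51 and 49 without La EC10 library 14. The 30 genes named for their size against control kept their calls in every setting that tested them. Their choice as the largest called changes with ranges apart made that likely. No paired analysis was possible because the columns carry a running number and not the replicate number of the labels. Omissions that leave 2 libraries in a group take their spread from the pooled fit. Depth limits genes near 10 normalized counts, where 0 reads allow up to 3.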
